A study of Mus musculus with 5 samples.

Results

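The regions described here are 1-kb windows of the mouse genome that were nearly free of CpG methylation in wild-type (WT) embryonic stem (ES) cells and were methylated in ES cells of the genotype Fbxl10 T/T. They were chosen by measured values: a window of the autosomes (build mm9) needed at least 5 CpGs with at least 10 reads in both libraries, a mean level below 10% in WT, and a mean at least 20 percentage points higher in Fbxl10 T/T. CpGs inside CCGG, the site that the enzyme MspI cuts, were left out. Of 16881 windows measured, 14053 were below 10% in WT, and 2933 of these rose (20.9% of the low windows), spanning 2.933 Mb. Another 10328 stayed within 5 points of WT (73.5%), and 792 (5.64%) lay in between. The rise of the 2933 windows is the rule itself, so their WT and Fbxl10 T/T levels are given below as a description and without a test.

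The study measured DNA methylation by reduced representation bisulfite sequencing (RRBS), which reads CpG-rich fragments cut by MspI after bisulfite has turned unmethylated cytosines into thymines. It holds 5 libraries, 1 per genotype: WT, Fbxl10 T/T, and the Polycomb mutants Ezh2 -/-, Eed -/- and Ring1B -/-. WT and Fbxl10 T/T cells were of strain C57BL/6J, were grown with serum and LIF on inactivated fibroblast feeders that were removed before use, and were harvested at passage 17. The other 3 genotypes carry a label of serum and LIF culture only, with no strain or passage, so genotype cannot be told apart from strain, culture and passage for them. The labels do not say whether a line is 1 clone or what the T allele is, and ES cell identity was taken from the label, since no expression is measured in these tables, and neither is the loss of the targeted proteins. With 1 library per genotype no difference has a replicate check, and any test on reads compares 2 libraries and not 2 genotypes.

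FBXL10, also called KDM2B, binds unmethylated CpGs through a CXXC zinc finger and brings a variant of Polycomb repressive complex 1 to CpG islands. That complex ubiquitinates histone H2A by its ligase subunit Ring1B, while Polycomb repressive complex 2, built around Eed and the enzyme Ezh2, methylates histone H3 at lysine 27. In ES cells Polycomb complexes sit mainly on the CpG islands of silent developmental genes, which normally lack DNA methylation.

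The promoters below show what a risen window looks like at the level of single CpGs. Promoter sequences of RefSeq (build GRCm38.p6, strand of the gene, 250 bases up to the transcription start) were placed on the tables by their letters, and capitals mark each CpG outside CCGG with at least 10 reads in both WT and Fbxl10 T/T. The first 4 lie in risen windows and were picked for their gene groups: Nkx6-2 and Hmx1 encode homeobox factors of neural and sensory development, Hoxd11 a factor of limb and axis patterning, and Wnt5b a secreted signalling protein. Rps7, a protein of the small ribosomal subunit, lies in a window that stayed. Arhgef7, an exchange factor for Rac and Cdc42, is shown with an upstream start in a risen window and a downstream start in a window that stayed.
Nkx6-2, chr7:139582798-139583047, minus strand: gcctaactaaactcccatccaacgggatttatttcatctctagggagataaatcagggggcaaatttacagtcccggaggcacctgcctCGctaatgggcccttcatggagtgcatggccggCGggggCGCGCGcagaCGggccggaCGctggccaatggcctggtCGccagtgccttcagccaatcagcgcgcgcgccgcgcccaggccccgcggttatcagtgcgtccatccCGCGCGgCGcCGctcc
Hmx1, chr5:35388611-35388860, plus strand: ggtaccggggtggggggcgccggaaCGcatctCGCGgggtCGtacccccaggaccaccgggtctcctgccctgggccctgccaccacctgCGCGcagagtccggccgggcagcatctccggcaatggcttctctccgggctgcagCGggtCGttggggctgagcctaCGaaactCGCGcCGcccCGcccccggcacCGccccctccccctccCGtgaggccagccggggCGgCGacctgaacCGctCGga
Hoxd11, chr2:74682073-74682322, plus strand: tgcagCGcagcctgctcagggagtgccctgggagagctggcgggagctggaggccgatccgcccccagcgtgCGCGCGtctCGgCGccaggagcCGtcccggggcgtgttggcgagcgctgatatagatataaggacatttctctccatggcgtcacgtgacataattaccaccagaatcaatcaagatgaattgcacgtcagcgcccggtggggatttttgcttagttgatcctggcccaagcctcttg
Wnt5b, chr6:119544348-119544597, minus strand: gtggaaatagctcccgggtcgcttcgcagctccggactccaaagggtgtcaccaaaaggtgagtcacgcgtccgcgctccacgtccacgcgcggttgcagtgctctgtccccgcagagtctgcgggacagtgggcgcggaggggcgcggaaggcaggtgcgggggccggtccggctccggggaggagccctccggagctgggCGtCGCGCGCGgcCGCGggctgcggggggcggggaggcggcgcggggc
Rps7, chr12:28635954-28636203, minus strand: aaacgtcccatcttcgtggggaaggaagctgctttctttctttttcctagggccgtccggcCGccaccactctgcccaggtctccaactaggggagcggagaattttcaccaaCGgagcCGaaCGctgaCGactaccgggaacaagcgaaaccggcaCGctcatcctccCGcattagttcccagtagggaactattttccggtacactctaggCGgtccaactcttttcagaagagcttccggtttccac
Arhgef7 upstream start, chr8:11727808-11728057, plus strand: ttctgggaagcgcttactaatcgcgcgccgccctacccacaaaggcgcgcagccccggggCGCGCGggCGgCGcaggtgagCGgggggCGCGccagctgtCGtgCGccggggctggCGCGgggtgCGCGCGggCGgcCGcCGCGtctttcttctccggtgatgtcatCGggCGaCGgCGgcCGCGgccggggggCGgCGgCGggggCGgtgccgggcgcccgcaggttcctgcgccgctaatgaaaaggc
Arhgef7 downstream start, chr8:11758115-11758364, plus strand: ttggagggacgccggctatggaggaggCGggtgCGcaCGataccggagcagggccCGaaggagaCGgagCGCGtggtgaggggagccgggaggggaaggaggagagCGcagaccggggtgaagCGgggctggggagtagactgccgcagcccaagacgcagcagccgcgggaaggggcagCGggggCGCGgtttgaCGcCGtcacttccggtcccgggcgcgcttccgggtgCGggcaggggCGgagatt

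At the 13 capital CpGs of the Nkx6-2 promoter, WT ranged from 0 to 13.6% and Fbxl10 T/T from 50% to 94.4%. The 19 capital CpGs of Hmx1 averaged 0.721% in WT and 59.6% in Fbxl10 T/T (36.4 to 81.8%). The 7 of Hoxd11 averaged 1.93% in WT and 55.6% in Fbxl10 T/T (39.1 to 65.2%), and the 7 of Wnt5b averaged 0.733% and 86.3% (73.7 to 94.7%). In each of these 4 promoters the lowest Fbxl10 T/T value of a capital CpG stood above the highest WT value. The promoters were picked from windows that the rule chose for this difference, so the gap is a description only. At the 8 capital CpGs of Rps7 neither library passed 4.35%. The upstream Arhgef7 promoter averaged 1.19% in WT and 45.7% in Fbxl10 T/T over 29 CpGs, with a low of 6.67% and a high of 75%. In mm9 this start lies at 11728058, and its risen window begins at 11728001. Most of the printed bases, with the lowest and the highest CpG, thus lie in the adjoining window and not in the risen window itself. At the downstream Arhgef7 promoter all 16 measured CpGs read 0 in Fbxl10 T/T (768 reads, which allows a level of up to 0.391%) and at most 5.88% in WT.

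The risen windows had a median level of 3.4% in WT (quartiles 1.94 and 5.76%, highest 9.998%) and of 57.5% in Fbxl10 T/T (quartiles 46.0 and 65.8%, range 20.9 to 91.1%). The rise had a median of 53.5 points and ran from 20 to 85.8 points. In Fbxl10 T/T, 1999 of the 2933 windows were above 50% (68.2%) and 42 were above 80% (1.43%), so intermediate levels made up most of the set. A risen window held a median of 13 CpGs (5 to 95) with 818 WT reads and 424 Fbxl10 T/T reads; the medians of windows that stayed were 16 CpGs, 1004 reads and 651 reads.

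**Figure D1:**
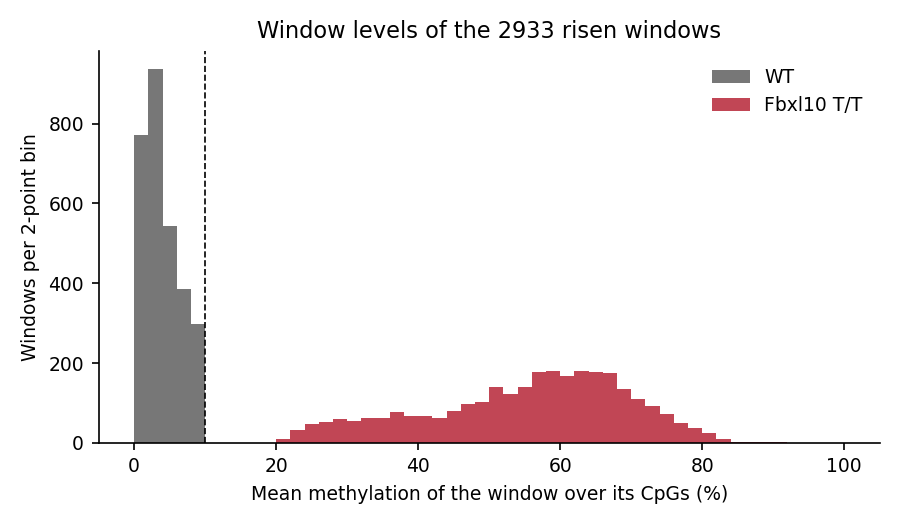
Histogram of the mean methylation (%) of the 2933 risen windows in WT (grey) and Fbxl10 T/T (red), in bins of 2 percentage points, with the number of windows on the y axis and the 10% limit of the rule as a dashed line. The WT levels end at 10% by the rule, and the Fbxl10 T/T levels spread from 20.9 to 91.1% around a median of 57.5%.

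Within a window the methylation was spread over most CpGs rather than carried by a few. Of the 49408 CpGs behind the risen windows, 0.994% read 5% or less in Fbxl10 T/T, 6.21% read 5 to 20%, 16.9% read 20 to 40%, 30.2% read 40 to 60%, 37.4% read 60 to 80% and 8.30% read above 80%. In WT 78.4% of the same CpGs read 5% or less. The standard deviation over the CpGs of a window had a median of 13.5 points in Fbxl10 T/T. The lowest CpG of a window had a median of 29.7% and the highest of 79.2%, and in 2300 of 2933 windows (78.4%) even the lowest CpG stood over 10 points above the window's WT mean.

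CpGs inside CCGG were not used to choose the windows, but they come from the same 2 libraries, so they too are a description. In the 2913 risen windows with at least 30 such reads in both libraries, their median level was 23.3% in WT and 65.7% in Fbxl10 T/T, and 2773 windows (95.2%) were at least 20 points higher in Fbxl10 T/T. In 10289 windows that stayed, the medians were 21.4% and 21.2%, and 6 were at least 20 points higher. Over summed reads of WT, windows that stayed read 22.1% inside CCGG and 1.60% outside it. The source of this higher reading was not tested, so a level inside CCGG may not be the methylation of the site.

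Among windows with at least 10 CpGs, the 12 with the largest rise gained between 77.0 and 85.8 points. The largest and the fifth largest adjoin each other on chromosome 18, with 3.05% and 1.70% in WT and 88.8% and 80.9% in Fbxl10 T/T. The second, chr5:144014001-144015000, went from 4.80% ± 11 (SD over 10 CpGs, 904 reads) in WT to 88.2% ± 3.44 (382 reads) in Fbxl10 T/T. Next came chr7:6141001-6142000, from 6.47% to 87.7%. The only one of the 12 with a placed transcription start in or within 1000 bases was chr6:53770001-53771000, which holds the start of Tril, a membrane protein that takes part in Toll-like receptor signalling. Its 31 CpGs averaged 2.58% ± 3.24 in WT (1795 reads) and 83.1% ± 7.80 in Fbxl10 T/T (1480 reads).

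At the edge of the rule the windows just inside and just outside were close in level. The 5 just inside rose by 20 to 20.2 points, to between 21.5 and 22.2% in Fbxl10 T/T, and lay at or near the starts of Gde1, Ccdc116, Ier5l and Kcnma1 and at chr9:31721001-31722000. The 5 just outside rose by 19.9 to 20 points, to between 21.0 and 24.8%, and included the start windows of Syce2, a protein of the meiotic synaptonemal complex, and of Anks1b. In 3 of the 5 outside and 2 of the 5 inside, the CpGs of the window differed by an SD of over 25 points in Fbxl10 T/T.

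Risen windows came next to each other. Of 1646 adjoining windows that were measured, counted once per risen window and side, 1208 had risen too (73.4%), 111 lay in between, 72 had stayed (4.37%) and 255 were at 10% or more in WT. Next to windows that stayed, 72 of 5467 adjoining windows had risen (1.32%). The 2933 windows formed 2329 runs: 1802 of a single window, 458 of 2, 62 of 3, 6 of 4 and 1 of 5. Windows next to each other can be parts of 1 CpG island, so they are not independent.

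The longest run, chr15:74346001-74351000, held 75 CpGs, and its 5 windows read 1.28 to 7.06% in WT and 49.6 to 78.8% in Fbxl10 T/T. Over its summed reads WT read 2.71% and Fbxl10 T/T 61.7%, whereas Ring1B -/- read 7.48% (147 reads), Eed -/- 3.54% (198 reads) and Ezh2 -/- 6.15% (179 reads). Of the 6 runs of 4 windows, 2 are given here, chosen after their values were seen. The run chr11:33100001-33104000 read 4.18% in WT, 65.9% in Fbxl10 T/T and 1.86, 4.82 and 8.46% in Ring1B -/-, Eed -/- and Ezh2 -/-. The run chr8:123059001-123063000, at the gene Gse1, held the most CpGs of the 7 longest runs, 109, and read 1.25% in WT, 43.7% in Fbxl10 T/T and 2.47, 3.30 and 1.11% in the 3 Polycomb mutants. In each of these 3 runs, Fbxl10 T/T stood far above the other 4 libraries, but the rule had chosen their windows for its rise over WT.

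Risen windows were found on every autosome. Their share of the low windows ran from 14.4% (102 of 708) on chromosome 10 to 26.5% (181 of 683) on chromosome 6, and their median level in Fbxl10 T/T from 54.4% on chromosome 14 to 62.0% on chromosome 16. The share fell slowly with the number of CpGs listed in the window, from 22.9% (509 of 2224) at 5 to 14 CpGs to 16.5% (419 of 2534) at 50 or more, whereas the Fbxl10 T/T median of the risen windows was 57.3% in the first of these classes and 58.7% in the last. Risen windows listed a median of 26 CpGs per kb and windows that stayed 29.

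A smaller share of the risen windows than of the windows that stayed held a placed transcription start. A placed start lay inside 718 of the 2933 risen windows (24.5%, 95% Wilson interval 23.0 to 26.1%) and inside 4222 of 10328 windows that stayed (40.9%, 39.9 to 41.8%). Within 1000 bases of the window the shares were 36.2% and 56.6%. Seen the other way, 13.9% of the 5152 low windows with a start inside rose, against 24.9% of the 8901 without. The gap was present in each class of CpG number, for example 12.5% against 21.1% at 50 or more CpGs. These shares are of 2 libraries, and the intervals count windows as independent. Only starts whose promoter could be placed are counted, so true starts are missed in both groups.

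**Figure D2:**
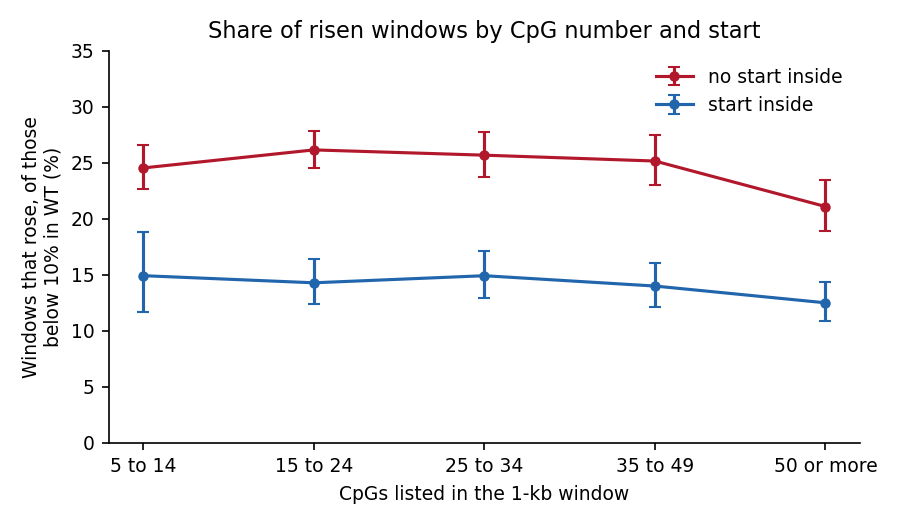
Share of windows below 10% in WT that rose in Fbxl10 T/T (%, y axis) by the number of CpGs listed in the 1-kb window (x axis), for windows with a placed transcription start inside (blue) and without one (red). Points are shares and bars are 95% Wilson intervals over windows; the red points lie at 21.1 to 26.1% and the blue points at 12.5 to 14.9%.

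Around the 808 starts that lay in risen windows, Fbxl10 T/T methylation was high on both sides of the start. The rule averaged the whole window holding each start, and a start can lie anywhere in its window. Bins up to a window's length away on both sides thus include CpGs that chose the windows. In those bins the high level is a description and not an independent sign of spread. In bins of 200 bases from 2000 bases upstream to 2000 bases downstream, the mean over CpGs ran from 41.9% to 61.4%. It was 50.9% just upstream of the start and 52.4% just downstream, and the bins below 50% lay 1400 to 1800 bases upstream, where few CpGs were measured (151 and 159 a bin, against 5279 just upstream of the start). WT read 3% just upstream of the start, and 8.53% and 9.84% in the outermost bins upstream and downstream. Around the 5206 starts in windows that stayed, Fbxl10 T/T read 1.47% just upstream of the start and WT 1.54%.

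**Figure D3:**
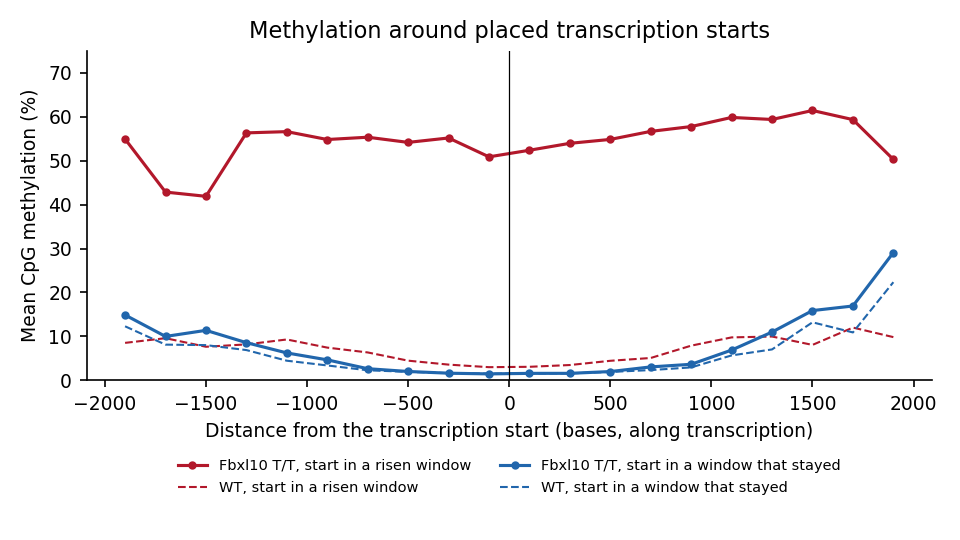
Mean CpG methylation (%, y axis) by distance from the transcription start in bases along transcription (x axis, bins of 200 bases), for starts in risen windows (red) and in windows that stayed (blue), in Fbxl10 T/T (solid) and WT (dashed). The red solid line lies at 50.9% just upstream of the start, where the other 3 lines lie at or below 3%. The rule averaged the whole window holding the start. Bins up to a window's length away on both sides thus include CpGs that were part of the rule.

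The promoter table let 7093 of 27025 genes be placed. Of these, 5624 had a start in a window below 10% in WT, and 736 had 1 in a risen window (13.1%), while 4679 had 1 in a window that stayed. Among protein-coding genes 622 of 4958 rose (12.5%) and among long non-coding RNA genes 114 of 665 (17.1%). The gene lists were chosen with earlier results of these data known, so their counts describe the set and are read beside the 13.1% of all genes.

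Hox cluster genes, which set positions along the body axis, had risen start windows in 7 of 9 cases, the antisense RNAs Hoxb3os and Hoxa11os among the 7. Hoxd11 went from 4.54% in WT to 59.6% ± 14.9 in Fbxl10 T/T (SD over 45 CpGs), Hoxd1 from 5.17% to 62.9%, Hoxd10 from 3.73% to 51.3% and Hoxb3os, an antisense RNA, from 1.38% to 69.3%. Hoxd13 rose to 26.0%, the least of the 7. The start window of Hoxa5 stayed (3.80% in Fbxl10 T/T), and that of Hoxa13 lay in between (0.73% and 15.6%). The counts do not use strand, so a window shared by a gene and its antisense RNA belongs to both.

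Of 31 genes for other homeobox, Pax, Lhx, Nkx, Irx and Dlx factors, which specify tissues and neuron types, 25 had a risen start window. The 5 with the most CpGs were Nkx6-1 (1.96% in WT, 32.2% ± 18.4 in Fbxl10 T/T), Hmx1 (2.05%, 68.0% ± 12.1), Gsx1 (1.27%, 66.1% ± 9.35), Nkx6-2 (3.89%, 79.4% ± 11.9) and Barx1 (3.08%, 64.4% ± 14.4). Nkx6-1 stood out as the lowest of these 5 in Fbxl10 T/T. Those that stayed were Meis3, Dlx1, Six5 and Prox1, and Hmx2 and Gbx2 lay in between, at 6.61% and 11.1%.

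Of 33 genes matched by symbols of Gata, Tbx, Fox, Sox and basic helix-loop-helix lineage factors, 17 rose and 12 stayed. Those that stayed include Foxred1 and Foxred2, which code for oxidoreductases and not for Fox factors, and those that rose include the antisense RNAs Foxl2os and Sox6os. Sox12 went from 1.24% to 44.2%, Foxl2, a factor of ovary development, from 0.86% to 55.2%, Bhlhe23 from 5.60% to 59.4% and Tbx1, a factor of pharyngeal development, from 7.57% to 70.0%. The start windows of Foxj3, Foxk2, Sox13, Foxp4 and Atoh8 stayed at or below 3.80% in Fbxl10 T/T. Among Wnt, Bmp, Fgf and related genes, which code for secreted signals apart from a few such as the receptor genes Bmpr1a and Bmpr2, 13 of 26 rose. Gdf10 went from 5.97% to 63.8%, Wnt5b from 1.18% to 72.1%, Fgf12 from 1.86% to 62.0% and Wnt3a from 2.85% to 53.5%, while Fgf18, Wnt4 and Bmp6 stayed at or below 4.71%.

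Genes of protein synthesis, protein breakdown and respiration had low start windows in both libraries. None of 54 genes matched by ribosomal protein symbols rose, 53 stayed, and the 1 in between was Rps6ka2, which codes for a kinase and not for a ribosomal protein (0.66% in WT, 8.29% in Fbxl10 T/T). The related kinase genes Rps6ka1, Rps6ka4, Rps6kb1 and Rps6kc1 are among those that stayed. None of 70 genes matched by symbols of the proteasome, the respiratory chain or translation initiation rose, and all 70 stayed. None of 8 genes of the DNA methylation machinery rose, but the interval of 0 to 32.4% holds the 13.1% of all genes. Dnmt1 (0.30% and 0.69%), Dnmt3a (1.07% and 1.13%), Dnmt3b (0.65% and 0.41%), Tet2 and Tet3 were among those that stayed. Of 14 genes matched by symbols of the Polycomb complexes, 12 stayed, Suz12, Pcgf5 and Phc2 among them. The 12 include Cbx3, which is not a Polycomb gene. The 2 that rose (14.3%, near the 13.1% of all genes) were Phf19 and Cbx7. Phf19, an accessory protein of complex 2, went from 2.25% to 61.0%, and Cbx7, a chromodomain protein of complex 1, from 1.65% to 70.7%. Of 4 placed pluripotency genes, 3 had a start window below 10% in WT: Fgf4, which codes for a growth factor that ES cells make, went from 1.96% to 64.8% ± 10.5, and Klf2 and Tfcp2l1 stayed at 1.89% and 3.54%. The 1 germline gene with a low start window in WT, Syce2, fell just outside the rule, as given above.

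**Figure D4:**
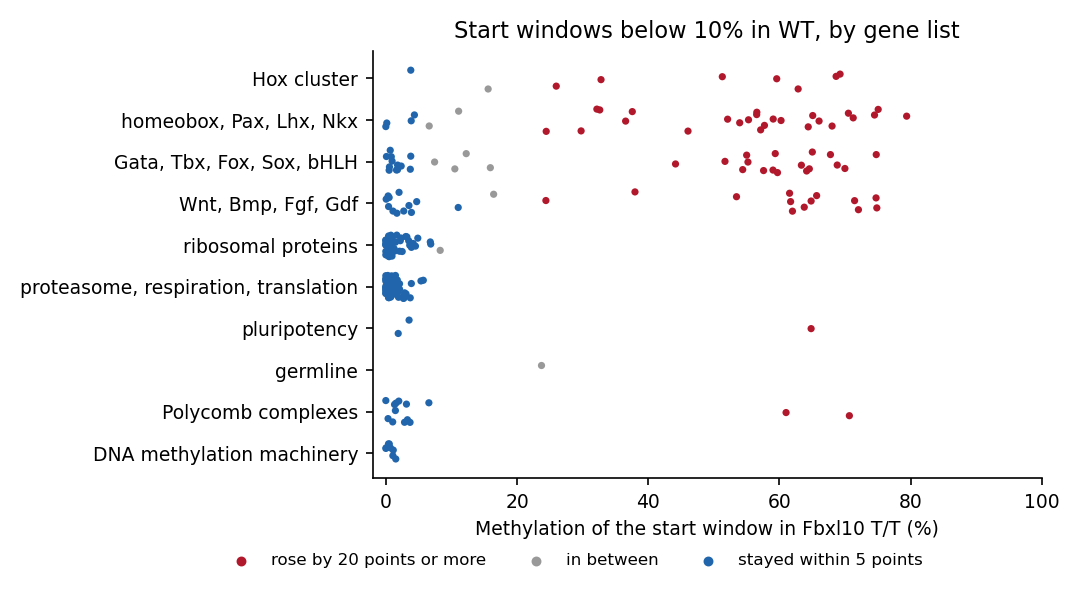
Fbxl10 T/T methylation (%, x axis) of start windows that were below 10% in WT, 1 point per gene, by gene list (y axis, points spread vertically for sight only). Red points rose by at least 20 points over WT, grey points lay in between and blue points stayed within 5 points; the developmental lists hold most of the red points and the lists of ribosomal protein and proteasome genes none.

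In 12 genes with several placed starts, 1 start lay in a risen window and another in a window that stayed, out of 157 genes with starts in at least 2 low windows. Arhgef7, whose promoters are printed above, read 54.4% ± 15.3 in Fbxl10 T/T in the upstream start window (48 CpGs) and 1.09% ± 2.48 in the window 30307 bases downstream (39 CpGs). Rasgef1a, a Ras exchange factor, read 66.9% and 0.63% at starts 54880 bases apart, and Prkar1b, a regulatory subunit of protein kinase A, 75.7% and 0.82% at starts 20951 bases apart. Dnmbp, Tspan9, Gsn, Ralgds, Rgmb, Nfatc2 and Car7 had the same arrangement over 4499 to 108516 bases. In Npnt and Dnajb5 the starts were 477 and 506 bases apart, and the windows read 54.1% and 5.12% in Npnt and 29.2% and 1.32% in Dnajb5. Of the 36 genes among these 157 with a start in a risen window, 20 had all of their low starts in risen windows.

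MicroRNA hairpins were placed in 26 low windows, of which 7 had risen and 18 had stayed, against 20.9% risen among all low windows. The risen ones held Mir375, which acts in pancreatic islets (3.44% in WT, 66.2% in Fbxl10 T/T), Mir212, which is induced by neuronal activity (1.32%, 56.8%), and Mir1247 in the Dio3 region (5.80%, 70.3%). The other 4, Mir8109, Mir5130, Mir6538 and Gm51264, read 26.9 to 69.3% in Fbxl10 T/T. A placed hairpin gives its position, not the promoter of its transcript.

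Promoters of risen and stayed start windows were searched for short motifs of common promoter-binding factors. Promoters of 300 bases were used (250 before and 50 after the start, both strands searched, and none of the motifs contained in another). The risen, stayed and placed sets hold 1 promoter per gene, whereas the set of all promoters can hold several per gene. No test was made. The ETS motif CCGGAAG was in 6.52% of the 736 risen promoters, in 27.0% of the 4679 that stayed, in 22.9% of the promoters of all 6952 autosomal genes placed and in 8.86% of all 32851 promoters of the table. The NRF1 motif GCGCATGC was, in the same order, in 1.77%, 6.37%, 5.28% and 2.71% of promoters, and the YY1 motif AAGATGG in 1.77%, 6.95%, 6.21% and 6.34%. The GC box GGGCGG, bound by SP and KLF factors, was in 78.8% of risen and 80.8% of stayed promoters against 76.6% of those placed and 35.7% of all. In risen and stayed promoters the CCAAT box was in 27.0% and 32.3%, the E-box CACGTG in 9.78% and 11.1%, the cAMP response element TGACGTCA in 2.85% and 3.78%, and the string TATAAA in 4.76% and 3.44%. Base composition was close, with a median of 27 CpGs and 68.7% GC in risen promoters and 29 CpGs and 67.3% GC in those that stayed. These matches describe letters in the window and not binding. Of the motifs searched, only the ETS motif contains CCGG, the site that MspI cuts. Whether coverage by RRBS bears on its shares was not tested.

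The 3 Polycomb mutants were not used by the rule, but the WT library was, since its low level chose the windows, and all 3 comparisons share that library. Over all reads outside CCGG, the risen windows read 3.54% for WT (3919241 reads) and 48.1% for Fbxl10 T/T (2048628 reads). Ring1B -/- read 4.29% (95% Wilson interval 4.19 to 4.39%, 154086 reads), Eed -/- 3.45% (3.36 to 3.54%, 159906 reads) and Ezh2 -/- 3.63% (3.54 to 3.73%, 142252 reads). The 3 mutants thus lay within 1 point of WT where Fbxl10 T/T, whose rise chose the windows, lay over 40 points above it. Windows that stayed read 1.60% in WT and 1.65% in Fbxl10 T/T, and in the mutants, in the same order as before, 3.15, 2.92 and 2.41%. Cytosines before C or T, which are hardly methylated, read 0.534% in WT and 0.729% in Fbxl10 T/T in the risen windows, and 2.51, 2.50 and 2.02% in Ring1B -/-, Eed -/- and Ezh2 -/-. The part of this higher reading in the levels of the mutants was not tested. A total of 4 risen windows with over 10000 WT reads each hold many of the reads, and without them the levels were 3.53% in WT, 54.5% in Fbxl10 T/T and 4.51, 3.61 and 3.94% in the 3 mutants.

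**Figure D5:**
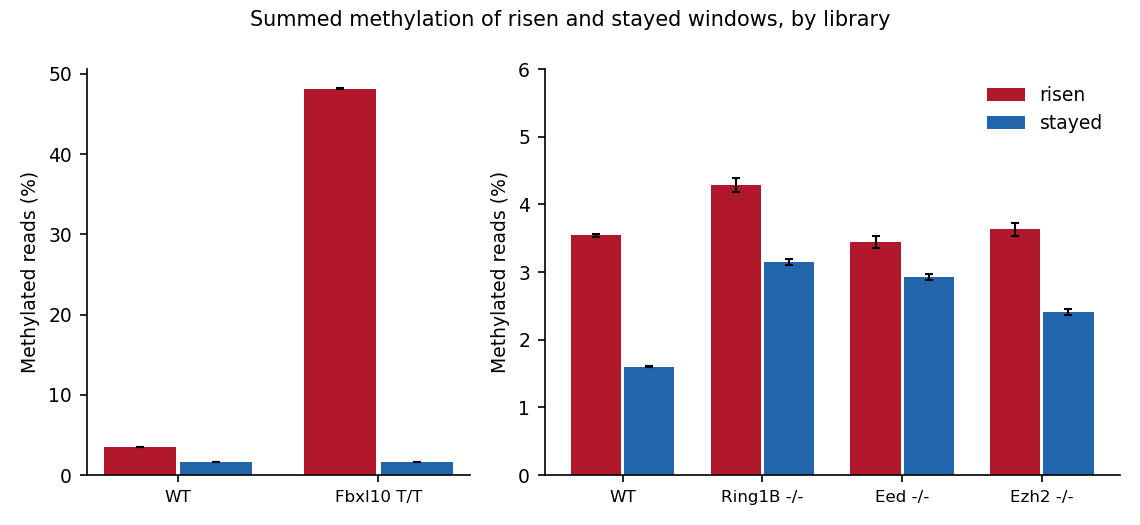
Share of methylated reads (%, y axis) at CpGs outside CCGG, summed over risen windows (red) and windows that stayed (blue), in WT and Fbxl10 T/T (left panel) and in WT and the 3 Polycomb mutants (right panel, with its own scale). Bars are shares of reads in 1 library each with 95% Wilson intervals; risen windows read 48.1% in Fbxl10 T/T and 3.45 to 4.29% in the mutants.

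Single windows were compared by Fisher's exact test (two-sided, Benjamini-Hochberg adjustment over all windows with at least 30 reads in both libraries). A call needed a rise of 20 points or more together with an adjusted p below 0.05. A read counts at each CpG it covers and the test treats these counts as separate, so its p-values are too small. In Ring1B -/-, 30 of 1530 risen windows were called (1.96%, interval 1.38 to 2.79%) beside 1.38% of all 9003 windows tested. Of 6231 windows that stayed, 29 were called (0.465%, 0.324 to 0.668%). In Eed -/-, 5 of 1625 were called (0.308%) beside 0.39% of all 9479 and 15 of 6496 that stayed (0.231%). In Ezh2 -/-, 4 of 1494 were called (0.268%) beside 0.215% of all 8821 and 9 of 6137 that stayed (0.147%). The windows tested were not limited to those below 10% in WT, so all windows are a wider group than the risen and stayed ones. For Eed -/- and Ezh2 -/- the shares were near those of all windows. The Ring1B -/- share was above that of windows that stayed, and no difference between shares was tested. Of the risen windows tested, 43 in Ring1B -/-, 8 in Eed -/- and 13 in Ezh2 -/- read above 20%, called or not. The median risen window read 2.60, 2.53 and 2.73% in the mutants, with 90th percentiles of 9.72, 8.82 and 9.68%, on a median of 62, 61 and 57 reads.

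The largest differences in Ring1B -/- were at neighbouring windows on chromosome 5. At chr5:144016001-144017000, 84.6% of 91 reads were methylated in Ring1B -/- and 8.70% of 1402 reads in WT at the same CpGs (Fisher's exact test, adjusted p = 8.0e-56). At chr5:144015001-144016000 the values were 65.3% of 98 reads and 3.02% of 2880 (Fisher's exact test, adjusted p = 1.5e-60), and the window that adjoins it on the other side is the second largest rise in Fbxl10 T/T, above. The start window of Twist2, a basic helix-loop-helix factor of mesenchyme, read 38.4% of 73 reads in Ring1B -/-, 2.92% in WT at those CpGs and 64.6% in Fbxl10 T/T, while Eed -/- read 3.92% and Ezh2 -/- 7.50%. Of the 30 windows called in Ring1B -/-, 4 had a placed start in them or within 1000 bases: those of Twist2, Qrfprl, Mir9-3hg and Egln3. Mir9-3hg, the host transcript of a miR-9 gene, was the 1 risen window called in more than 1 mutant, at 40.6% in Ring1B -/- and 30.6% in Ezh2 -/-. At the CpGs read in each of these, WT read 8.90% and 10.5%, and the Ezh2 -/- difference was 20.2 points on 49 reads. In Eed -/- the called windows included those at Pou4f1, a factor of sensory neurons (32.3% of 31 reads), at Zfp629 (29.3% of 99 reads) and at Dio3 (25.7% of 70 reads). WT read 2.89, 5.76 and 5.60% at the same CpGs. In Ezh2 -/- they included that of Neurog1, a proneural factor (27.7% of 47 reads), and that of Gm26653 (35% of 40 reads), where WT read 6.68% and 5.26%.

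Depth allowed a closer look at 528 risen windows with at least 60 reads in each of the 3 mutants. None of the 3 mutants passed 20% in 518 of them, and Ring1B -/- had a median of 2.81%, Eed -/- of 2.68% and Ezh2 -/- of 2.71%. The 4 risen windows with over 10000 WT reads were left out before the 12 with the most reads in the mutants were taken. In these 12, Fbxl10 T/T read 23.4 to 68.3%. The highest mutant value was 12.3%, in Ring1B -/- in the window of chromosome 8 that starts at position 120022001. There Eed -/- read 9.39%, Ezh2 -/- 9.30% and WT 5.06%. The window of Tafa5, a secreted neural protein, read 2.03% in WT and 68.3% in Fbxl10 T/T, while Ring1B -/- read 0.377% (265 reads), Eed -/- 0.855% (234 reads) and Ezh2 -/- 2.22% (270 reads). That of Mpped1 read 5.27% in WT, 64.4% in Fbxl10 T/T and 9, 6.83 and 3.93% in the mutants. That of Macroh2a1, which codes for a histone H2A variant, read 1.31% in WT, 24.2% in Fbxl10 T/T and 4.36, 2.48 and 0.81% in the mutants.

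Summed over developmental start windows, the 3 mutants read low as well, but single windows did not all do so. Over the 66 risen start windows of the 4 lists of Hox genes, other homeobox genes, lineage factors and secreted signals, WT read 3% and Fbxl10 T/T 57.4%, while Ring1B -/- read 4.40% (3.82 to 5.07%, 4137 reads), Eed -/- 3.61% (3.09 to 4.22%, 4205 reads) and Ezh2 -/- 3.83% (3.28 to 4.47%, 3967 reads). Each mutant value stood far below the Fbxl10 T/T level of the same windows, but the rule had chosen these windows for that high level. For example, Nkx6-2 read 3.21% in Ring1B -/- (156 reads), 5.68% in Eed -/- (176 reads) and 1.63% in Ezh2 -/- (123 reads). Barx1 read 4.20, 4.90 and 2.58% on 238, 143 and 194 reads. The windows of Twist2 (38.4% in Ring1B -/-) and Neurog1 (27.7% in Ezh2 -/-), called above, are among the 66. By list, in the same order of mutants, the risen windows of lineage factors read 6.88, 4.56 and 6.37%. Those of Hox genes read 2.42, 4.72 and 2.69%.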

How the data were processed

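RRBS tables of 5 libraries were used, 1 per genotype label. Per the submitters' processing notes, BSMAP 2.74 and build mm9 were used; other settings are not given in the sources used here. The deposited counts are reads per cytosine showing C, and showing C or T, per the file headers. Expected counts were deposited as C or T reads that the authors scaled for the opposite strand, and the deposited fraction is C over these; both served only as an alternative. CpGs were listed on 1 strand with both strands summed.

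Levels are C over C or T reads. A read counts at each CpG it covers, and the Wilson intervals (95%) and limits for a count of 0 (3 counts) cover counting error only and treat CpGs of 1 read as separate, so they are too narrow. Fisher's exact test treats them as separate too, so its p-values are too small and its calls can be too many. Polycomb mutants were compared with WT by Fisher's exact test on summed reads (SciPy 1.17.1, statsmodels 0.14.6), run on simulated data first. The simulated reads were independent, so they do not show how the test fares where 1 read covers several CpGs. Reads at CpGs were 42999787 in WT, 27289499 in Fbxl10 T/T and 1763598 to 1939239 in the 3 Polycomb mutants (medians of 33, 23 and 3 per CpG).

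No mm9 annotation was used and no coordinates were moved between builds. Joined together, the 5-base contexts listed for each cytosine spell 13536506 bases. RefSeq promoters and hairpins (GRCm38.p6) were placed on them where a 20-base stretch and every spelled base agreed over at least 60 bases (hairpins 40) at 1 position of the same chromosome. This placed 7935 of 32851 promoters and 36 of 1005 hairpins.

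Windows and lists were chosen with earlier results of these data known. Named were the 12 largest rises among windows with at least 10 CpGs, 5 windows on each side of the edge and the longest runs. Also named were the 12 deepest in the mutants, without the 4 windows of over 10000 WT reads, and up to 5 genes per list by CpGs. Other names were chosen after values were seen.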

Additional observations from a re-analysis of the deposited data

Results flagged for a closer look

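Cytosines outside CpGs played no part in choosing the windows or in the tests of the mutants. In the risen windows Fbxl10 T/T read above WT at these cytosines. Cytosines before A read 0.745% in Fbxl10 T/T (95% Wilson interval 0.729 to 0.761%) and 0.436% in WT (0.427 to 0.445%). Cytosines before C or T read 0.729% in Fbxl10 T/T (0.72 to 0.738%) and 0.534% in WT (0.529 to 0.540%). In windows that stayed the order was the opposite, with 0.386% in Fbxl10 T/T and 0.449% in WT before A, and 0.537% and 0.594% before C or T. Whether the difference between the groups of windows exceeds that between cultures cannot be tested with 1 library per genotype.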

How the results depend on the processing

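No paired analysis was possible because each genotype has 1 library. Of 46 alternatives over 10 results, 17 left a count within 1.5 times or a level within its interval. The number of risen windows, 2933, was 1947 with at least 10 CpGs and 1783 with CCGG CpGs kept, and 2016 to 3523 under the other 11 settings. The Fbxl10 T/T median was 58.1% at a minimum of 20 reads and 59.1% for a rise of at least 30 points. The median CpGs per kb was 28 at 20 reads and 34 with at least 10 CpGs. The share with a start nearby was 39.6% with at least 10 CpGs, 33.3% within 500 bases and 38.8% within 2000.

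In Ring1B -/-, Eed -/- and Ezh2 -/- the level of risen windows was 3.62, 2.97 and 3.07% over CpGs with at least 5 reads, 4.47, 3.54 and 3.98% as a mean over windows, 36.1, 33.9 and 33.9% inside CCGG, where windows that stayed read 35.4, 34 and 32.6%, and 4.51, 3.61 and 3.94% without the 4 deepest windows, a setting added after the data were seen. Called windows numbered 46 and 9 in Ring1B -/- and Eed -/- at a minimum of 20 reads, 9, 3 and 0 at 60 reads, and 72, 29 and 30 for a difference of at least 10 points. At about 60 reads per window in the mutants, small differences were not detectable, and windows not called are not shown to lack a difference.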
